A study of Homo sapiens with 23 samples.

Results

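The difference between the responses of CaSki cells to a miR-23b-3p mimic and to a miR-218-5p mimic was measured gene by gene. CaSki is an established HPV-positive line from a metastasis of a cervical squamous cell carcinoma. Its cells received 100 nM of hsa-miR-23b-3p (3 libraries), 100 nM of hsa-miR-218-5p (3 libraries) or 100 nM of negative control n#1 (3 libraries), and both mimics were set against the same control libraries. The same mimics and control, with 3 libraries each, were used in C-33A, an HPV-negative cervical squamous carcinoma line, which serves here as a second set of libraries. For each gene, the log2 fold change with miR-218-5p was subtracted from that with miR-23b-3p, so a negative difference marks a transcript lower with miR-23b-3p and a positive one a transcript lower with miR-218-5p. Of 61217 listed genes, 12995 entered, those with an average log2 CPM (counts scaled to library size) of 1 or more in both tables. SPON1, just inside this minimum at 1.00 in the miR-218-5p table, had a difference of 0.70, and BLZF2P, just outside it, had 0.91. Whether the libraries of 1 group are separate cultures is not in the labels, so the p-values measure the spread between these libraries, which may be technical. The deposited tables hold fold changes and their p-values, so values per library and depths are not given.

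A microRNA guides Argonaute proteins to messenger RNAs, mostly through pairing of its seed, the bases near its 5′ end, with sites in 3′ UTRs. Bound transcripts are translated less and decay faster, so a transfected mimic is known to lower the transcripts that carry its sites. Both miR-23b-3p and miR-218-5p have been described as reduced in cervical cancer, and the miR-218 genes lie within the SLIT genes. The mature sequences, credited to RefSeq (GRCh38.p14), are shown because their seeds set which sites they pair with. Capitals mark positions 2 to 8, counted from the 5′ end.

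hsa-miR-23b-3p: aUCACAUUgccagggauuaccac
hsa-miR-218-5p: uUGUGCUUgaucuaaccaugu

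The first lies at chr9:95085265-95085287 on the plus strand, in MIR23B. The second is encoded at chr4:20528299-20528319 on the plus strand, in MIR218-1, and at chr5:168768211-168768231 on the minus strand, in MIR218-2. A match to positions 2 to 8 is AATGTGA for miR-23b-3p and AAGCACA for miR-218-5p, on the transcribed strand only, and an 8mer is such a match followed by A. The transcripts that differed most are introduced by their matches in the 3′ UTR, taken from each gene's longest coding transcript in GENCODE 29 (GRCh38). Each line gives 23 bases of the transcribed strand, with the match in capitals. The first 8 are the transcripts that were lower with miR-23b-3p.

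DDAH1: taatgaattatcaaAATGTGAtt
SEC23A: caatagtaatgataAATGTGAAc
LBR: aaattttgtaaagtAATGTGAAt
MCFD2: cctggttatatacaAATGTGAcc
B4GAT1: gtaagcttcgtacaAATGTGAAg
NEK7: aaatgtaactattaAATGTGAAg
EIF4EBP2: ttttctgccacaaaAATGTGAAt
MARCKSL1: ggggggaggtctgtAATGTGAAa

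The next were lower with miR-218-5p.

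GALNT3: aagtttctgtttcaAAGCACAAt
ELK4: gtgttaaattttgaAAGCACAAa
PHC3: gatccactttagatAAGCACAAa
SH3D19: gttggagcatttgtAAGCACAtg
MTMR12: gattgcagaaattaAAGCACAAt
GFPT1: tgatttttctaaagAAGCACAAt

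The miR-23b-3p windows lie at chr1:85321193-85321215 in DDAH1 and chr14:39032819-39032841 in SEC23A, both on the minus strand. Those of LBR (chr1:225402550-225402572), MCFD2 (chr2:46905423-46905445), B4GAT1 (chr11:66345724-66345746) and MARCKSL1 (chr1:32333993-32334015) are on the minus strand too. Those of NEK7 (chr1:198320098-198320120) and EIF4EBP2 (chr10:70423719-70423741) are on the plus strand. The miR-218-5p windows of GALNT3 (chr2:165748592-165748614), ELK4 (chr1:205614321-205614343), PHC3 (chr3:170092381-170092403), SH3D19 (chr4:151121537-151121559), MTMR12 (chr5:32227017-32227039) and GFPT1 (chr2:69322302-69322324) are on the minus strand.

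Epithelial markers were measured in CaSki: all 18 of the squamous epithelial list, led by KRT5, a basal keratin, at an average log2 CPM of 12.08 in the authors' deposited table. Of the 18, only 1 was also tested in C-33A, so the lines differ in these markers. In CaSki, of 9 leukocyte and 7 endothelial markers 0 reached a log2 CPM of 1, and 2 of 9 fibroblast markers did. These were FAP at 6.56 and COL1A1 at 1.77, so the markers do not all point to epithelium. Mature microRNAs are not measured in polyA libraries, so the mimics themselves cannot be checked here. The control level implied by the miR-23b-3p table minus that implied by the miR-218-5p table had a median of 0.017 log2, with 5th and 95th percentiles of -0.20 and 0.15, an approximation from the deposited averages and fold changes. In the authors' deposited tables, 114 genes had log2 fold changes under -10 with all 3 mimics of the line, miR-124-3p included, and 108 of them were among the genes tested. Their levels with either mimic were near 0, so their differences (SE of 8.57 or more) cannot be interpreted, and 0 were called. Whether the control libraries were counted on the same annotation and reference as the mimic libraries is stated in no source used here and was not tested. Each CaSki fold change against the control printed here carries that limit, whereas in the difference between the mimics the control level cancels as far as the values above show.

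The mimics differed at a small set of transcripts, each lower with the microRNA whose site it carries than with the other. Lower than the control is another matter. Among the named genes lower with miR-218-5p, only GALNT3 differed from the control with that mimic at a deposited FDR under 0.05 (0.0081). With miR-23b-3p, MCFD2 and NEK7 did not (0.48 and 0.47). Over all genes, 1472 reached that FDR with miR-23b-3p and 15 with miR-218-5p. At an adjusted p under 0.05, 8 genes were lower with miR-23b-3p and 8 were lower with miR-218-5p (0.123% of 12995 genes tested, 0.0616% in each direction). The test was a normal test of the difference of the deposited fold changes, with Benjamini-Hochberg adjustment over all genes tested. Its SE sums both tables' squared SEs and so counts the spread of the shared control libraries, which the difference itself does not contain. With an SE for libraries of a common spread, 66 genes were lower with miR-23b-3p (0.508%) and 136 were lower with miR-218-5p (1.05%), 202 in all (1.55%). That SE is smaller by the same factor for every gene. The order by p is thus unchanged, and the 16 were bound to be among the 202. At an unadjusted p under 0.05 there were 485 genes (3.73%). Over all genes tested the difference had a median of -0.027, a 5th percentile of -0.37 and a 95th percentile of 0.47, with a median SE of 0.236.

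The transcripts lower with miR-23b-3p were led by DDAH1, the enzyme that breaks down asymmetric dimethylarginine, an inhibitor of nitric oxide synthases. In the authors' deposited tables DDAH1 stood at -1.07 with miR-23b-3p and 0.26 with miR-218-5p on the log2 scale. The difference of -1.32 (SE 0.200, adjusted p = 4.8e-07) is a 2.50-fold lower level with miR-23b-3p, and 95% limits ran from -1.71 to -0.93. SEC23A, a subunit of the inner COPII coat that carries cargo out of the endoplasmic reticulum, stood at -0.86 and 0.07 in the authors' deposited tables, a difference of -0.93 (SE 0.178, adjusted p = 0.00076). MCFD2, a partner of the cargo receptor LMAN1 in the same transport step, differed by -0.83 (SE 0.177, adjusted p = 0.0050). For MCFD2 the larger part came from the other mimic: the authors' deposited tables give -0.22 with miR-23b-3p and 0.62 with miR-218-5p. NEK7, a mitotic kinase also needed by the NLRP3 inflammasome, had the same form, with -0.25 and 0.60 in the authors' deposited tables and a difference of -0.85 (SE 0.184). The secretory list that holds SEC23A and MCFD2 had these 2 of 33 tested members called, both lower with miR-23b-3p, beside 0.0616% of all genes. Its median difference was -0.026 over all 33, beside -0.027 over all genes.

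B4GAT1, which starts the laminin-binding sugar chain of dystroglycan, stood at -0.97 with miR-23b-3p and 0.17 with miR-218-5p in the authors' deposited tables. Its difference was -1.14 (SE 0.247, adjusted p = 0.0069), a 2.20-fold lower level. LBR, the lamin B receptor of the inner nuclear membrane and a sterol reductase, differed by -0.89 (SE 0.173, adjusted p = 0.00076). EIF4EBP2, a repressor of cap-dependent translation that mTORC1 inactivates, differed by -0.71 (SE 0.167, adjusted p = 0.022). It was the 1 member called among 27 tested in the mTOR and PI3K-AKT list, beside 0.123% of all genes called. MARCKSL1, an actin-binding protein of the MARCKS family, differed by -0.77 (SE 0.183, adjusted p = 0.026). A length-GC trend, the dependence of the difference on transcript length and GC content across genes, was also fitted and subtracted. With it removed, MARCKSL1 stood at -0.63 and no longer passed (adjusted p = 0.28), while the other 7 did.

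**Figure D1:**
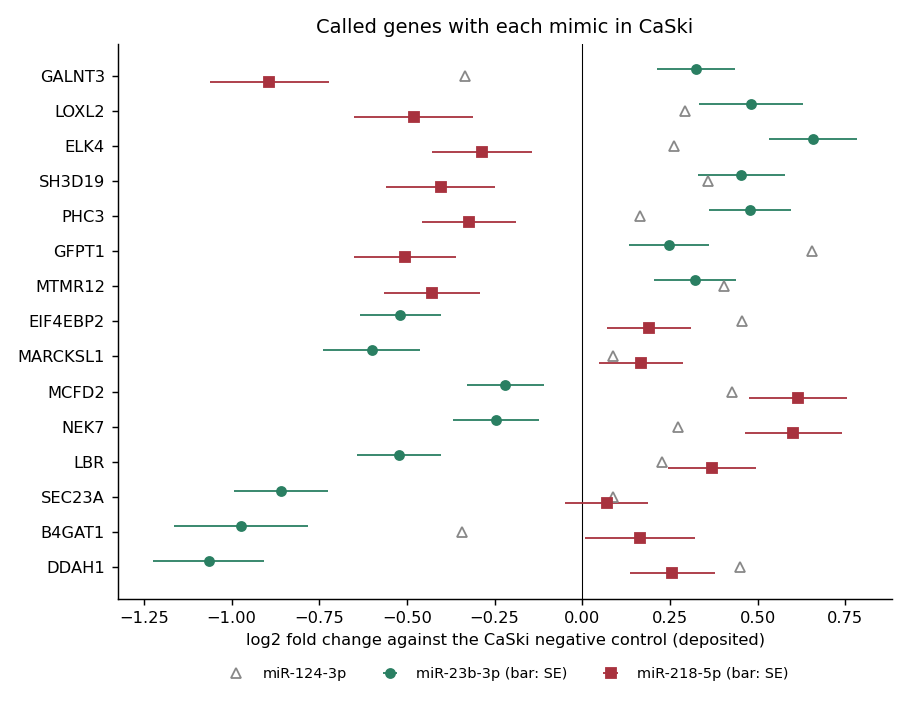
Log2 fold change against the CaSki negative control (x axis, authors' deposited tables) of the called genes that are named here (y axis) with miR-23b-3p (circles), miR-218-5p (squares) and miR-124-3p (triangles, no bar). Bars are SEs recovered from the deposited p-values; circles lie left of squares for the lower 8 genes and right of them for the upper 7, with MCFD2 and NEK7 at -0.22 and -0.25 against 0.62 and 0.60.

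Among the transcripts lower with miR-218-5p, GALNT3, which starts mucin-type O-glycosylation, had the lowest p. It stood at 0.32 with miR-23b-3p and -0.89 with miR-218-5p in the authors' deposited tables, a difference of 1.22 (SE 0.203, adjusted p = 1.3e-05), or 2.32-fold. ELK4, an ETS factor that binds with SRF at serum response elements, stood at 0.66 and -0.29 in the authors' deposited tables, so the larger part of its difference of 0.94 (SE 0.190, adjusted p = 0.0017) lay on the side of miR-23b-3p. PHC3, a subunit of Polycomb repressive complex 1, differed by 0.80 (SE 0.178, adjusted p = 0.0083), with 0.48 and -0.32 in the authors' deposited tables.

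LOXL2, a secreted enzyme that cross-links collagen and elastin, stood at 0.48 with miR-23b-3p and -0.48 with miR-218-5p in the authors' deposited tables and differed by 0.96 (SE 0.225, adjusted p = 0.021). GFPT1, the rate-limiting enzyme of the hexosamine pathway, differed by 0.75 (SE 0.184, adjusted p = 0.035), SH3D19, an adaptor of ADAM proteases, by 0.86 (SE 0.199, adjusted p = 0.019) and MTMR12, an inactive myotubularin, by 0.75 (SE 0.181, adjusted p = 0.029). With the length-GC trend removed, PHC3 (0.60), SH3D19 (0.80), MTMR12 (0.69) and GFPT1 (0.61) no longer passed, with adjusted p of 0.32, 0.058, 0.12 and 0.37. In that setting 12 genes passed in all, 5 of them lower with miR-218-5p, and 11 of the 16 were among them. With the median difference subtracted instead, 14 were lower with miR-218-5p and 8 with miR-23b-3p.

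The values with miR-124-3p, the other mimic given to this line, are set beside these. Its comparison shares the control libraries with the rest. With miR-124-3p, the authors' deposited table gives 0.45 for DDAH1, 0.09 for SEC23A, -0.34 for B4GAT1 and 0.45 for EIF4EBP2. It gives -0.33 for GALNT3, 0.40 for MTMR12 and 0.66 for GFPT1 in the authors' deposited table. DDAH1, SEC23A and EIF4EBP2 were thus below 0 with miR-23b-3p only among the 3 mimics, whereas B4GAT1 and GALNT3 were also below 0 with miR-124-3p.

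The transcripts next in order of p did not pass. Toward miR-23b-3p these were PPIF, cyclophilin D of the mitochondrial matrix (-0.65, SE 0.180, adjusted p = 0.13), MSMO1, a sterol oxidase of cholesterol synthesis (-0.60, adjusted p = 0.14), NACC2, a transcriptional repressor (-0.89, adjusted p = 0.22) and CCNG1, cyclin G1 (-0.57, adjusted p = 0.28). Toward miR-218-5p they were MYBL1, a MYB family factor (0.96, adjusted p = 0.052), SNTB2, a syntrophin (0.69, adjusted p = 0.053), CDS1, a CDP-diacylglycerol synthase (1.03, adjusted p = 0.065) and FHIP1A (0.75, adjusted p = 0.069). All 8 passed with the common-spread SE, with adjusted p from 1.4e-05 (MYBL1) to 0.00075 (CCNG1). Because that SE leaves the order by p unchanged, the genes next in order were bound to pass once more were called.

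**Figure D2:**
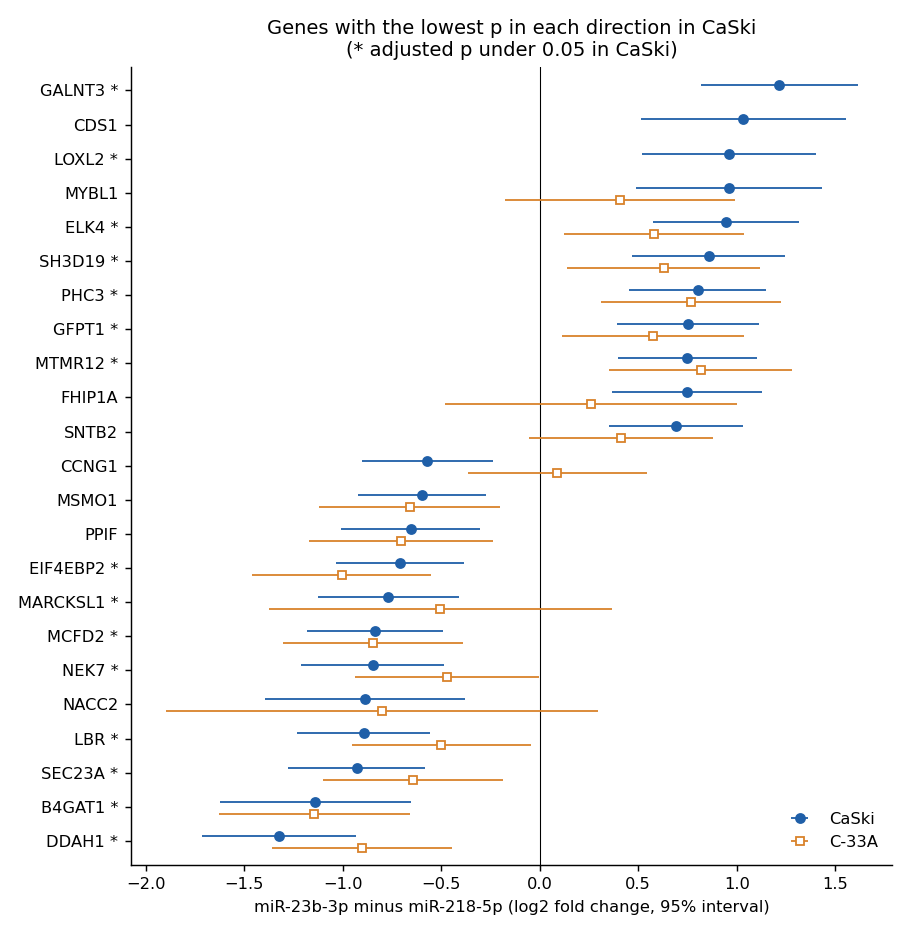
Difference between the mimics (x axis, log2, miR-23b-3p minus miR-218-5p) for the named genes among the 12 of lowest p in each direction (y axis), in CaSki (filled circles) and C-33A (open squares); bars are 95% limits and stars mark an adjusted p under 0.05 in CaSki. C-33A squares lie on the same side of 0 as CaSki for the starred genes that have one, and CCNG1 is the exception among the others, at 0.09 in C-33A.

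The calls were split by their sites, which the test did not use. Of the 8 genes lower with miR-23b-3p, 8 held a miR-23b-3p match to positions 2 to 8 in the 3′ UTR, 6 of them an 8mer, and 0 held a miR-218-5p match. Of the 8 lower with miR-218-5p, 8 held a miR-218-5p match, 7 of them an 8mer, and 0 held a miR-23b-3p match. Of the 11100 genes tested that have a 3′ UTR in the annotation, 21.5% carried a miR-23b-3p match and 15.6% a miR-218-5p match. SEC23A, whose first site is printed above, holds a pair of miR-23b-3p 8mers, at positions 412 and 640 of a 3′ UTR of 1320 nt. The miR-23b-3p matches of MCFD2 start at positions 32 and 47 of its 3′ UTR. PHC3 held 4 miR-218-5p matches in 9646 nt and ELK4 held 3 in 8603 nt. GALNT3 held 1 in 1190 nt.

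In the wider set called with the common-spread SE the split was less complete. Of 66 genes lower with miR-23b-3p, 50 held its match (75.8%) and 0 held a miR-218-5p match. Of 128 genes lower with miR-218-5p that have a 3′ UTR, 99 held its match (77.3%) and 42 held a miR-23b-3p match (32.8%, beside 21.5% of all genes). Once the length-GC trend was removed too, 172 genes were called (1.35% of 12764), 69 lower with miR-23b-3p (0.541%) and 103 lower with miR-218-5p (0.807%). Of the 69, 61 held a miR-23b-3p match (88.4%) and 9 a miR-218-5p match. Of the 90 with a 3′ UTR that were lower with miR-218-5p, 68 held its match (75.6%) and 20 a miR-23b-3p match (22.2%).

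In CaSki, the split over all genes with a site was plain for miR-218-5p. The shift for miR-23b-3p was small and not toward lower levels with miR-23b-3p. The 1734 genes with a miR-218-5p match had a median difference of 0.12, against -0.06 for 9366 genes without one, a shift of 0.180. The shift was 0.250 for 534 genes with an 8mer. By number of miR-218-5p matches the median was 0.107 for 1411 genes with 1, 0.197 for 262 genes with 2 and 0.335 for 61 genes with 3 or more. The 2385 genes with a miR-23b-3p match had a median of -0.003, against -0.042 for 8715 genes without one, a shift of 0.039 toward higher levels with miR-23b-3p. The shift was 0.010 for 1150 genes with an 8mer, also not toward lower levels. By number of miR-23b-3p matches the median was -0.003 for 1825 genes with 1, -0.013 for 409 genes with 2 and 0.021 for 151 genes with 3 or more, with no fall as matches increased. The shift of 0.039 turned to -0.052 with the length-GC trend removed. It was also negative within each of 3 classes of 3′ UTR length that hold like numbers of genes, at -0.044, -0.044 and -0.017 from the short to the long class. The miR-218-5p shift stayed positive in these settings, at 0.094 with the trend removed and 0.189, 0.163 and 0.114 within the classes.

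In CaSki, genes that carry sites for both microRNAs had a median nearer to that of genes with a miR-218-5p match only. The 659 genes with both had a median difference of 0.107, the 1075 with a miR-218-5p match only had 0.130, the 1726 with a miR-23b-3p match only had -0.043 and the 7640 with neither had -0.060. In C-33A the order was another: 661 genes with both had 0.023, 1030 with a miR-218-5p match only had 0.143, 1689 with a miR-23b-3p match only had -0.043 and 7200 with neither had 0.088. In the authors' deposited tables the genes with a miR-23b-3p match only had a median log2 fold change of 0.030 with miR-23b-3p and 0.071 with miR-218-5p. Genes with a miR-218-5p match only had 0.105 with miR-23b-3p and -0.023 with miR-218-5p in the authors' deposited tables. These are medians over genes, which are not replicates, and no test was run on them.

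**Figure D3:**
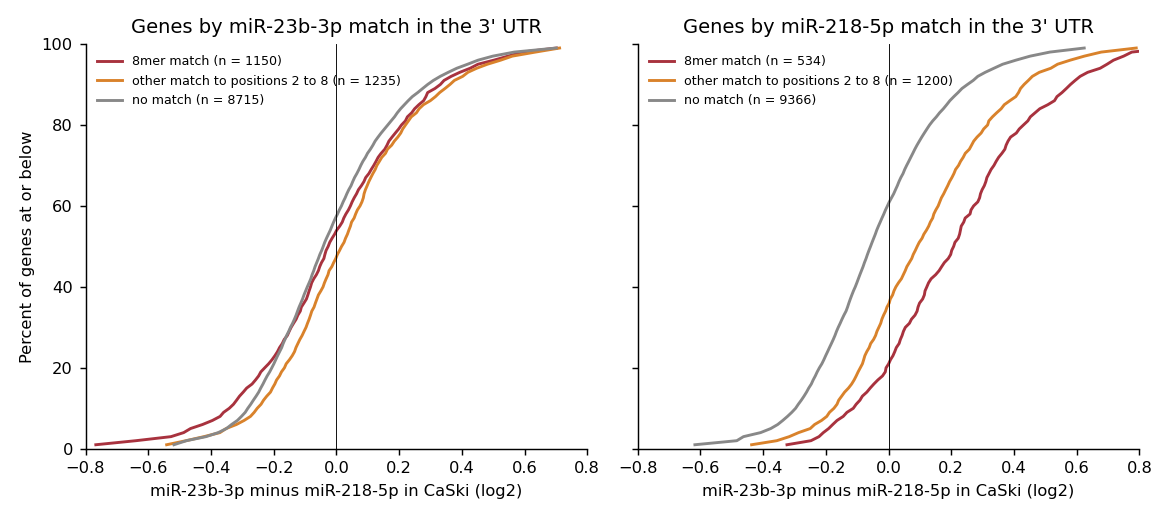
Cumulative percent of genes (y axis) at or below each difference between the mimics in CaSki (x axis, log2, miR-23b-3p minus miR-218-5p), by match for miR-23b-3p (left) or miR-218-5p (right) in the 3′ UTR. On the right the curves of 534 genes with an 8mer and 1200 with another match lie right of the 9366 with no match. On the left the curve of 1150 genes with an 8mer lies left of that with another match throughout. It lies left of the curve with no match only among the lower differences.

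Transcript length moved with the difference in CaSki. Median differences ran from -0.139 for 1025 genes with transcripts under 1000 nt and -0.146 for 2117 genes of 1000 to under 2000 nt to 0.049 for 3872 genes of 4000 to under 8000 nt and 0.168 for 1040 genes of 8000 nt or more. Spearman's rho between difference and length was 0.36 across 12764 genes in CaSki and -0.13 across 12491 genes in C-33A, over genes that share the libraries. Length correlated with the fold change of each mimic as well, with rho of 0.38 for miR-23b-3p and 0.25 for miR-218-5p in CaSki. Long transcripts also carry more 3′ UTR sequence, and the part of length in the site medians was addressed only by the removed trend and the length classes.

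**Figure D4:**
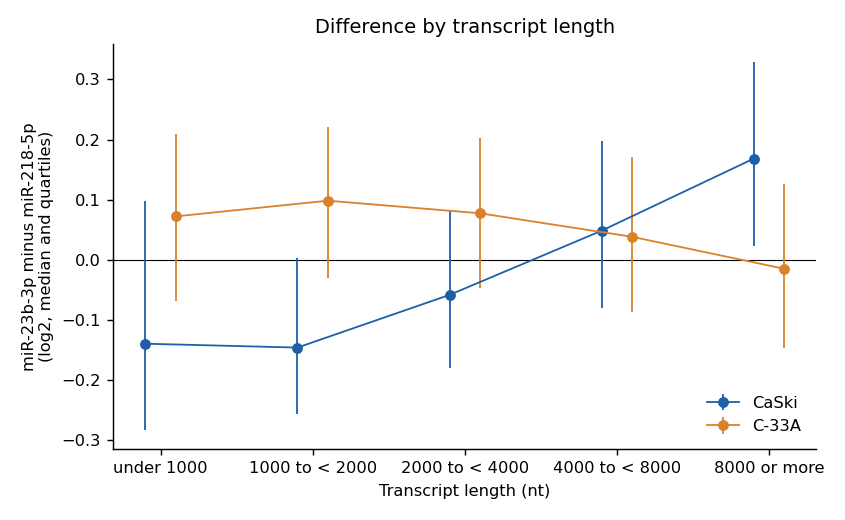
Difference between the mimics (y axis, log2, miR-23b-3p minus miR-218-5p; points are medians, bars quartiles) by transcript length (x axis, nt) in CaSki and C-33A. The CaSki medians go from -0.139 in the shortest class to 0.168 in the longest, and those of C-33A from 0.072 to -0.015.

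The same contrast in C-33A, whose libraries are not shared with CaSki, gave the called transcripts the same direction. Of the 16 genes called in CaSki, 13 were tested in C-33A and 13 of 13 had the same sign there, against 47.1% of the 10996 genes tested in both lines. GALNT3 and LOXL2 were among those with an average log2 CPM under 1 in C-33A. At an unadjusted p under 0.05 in C-33A stood 7 of the 8 genes lower with miR-23b-3p and 5 of the 5 lower with miR-218-5p. The share of all C-33A genes under that p is not given here. At an adjusted p under 0.05, 2 of the 13 were called in C-33A, beside 0.0627% of all genes tested there. DDAH1 differed by -0.90 in C-33A (SE 0.234), SEC23A by -0.64 (SE 0.232), MCFD2 by -0.85 (SE 0.234) and B4GAT1 by -1.14 (SE 0.247). MTMR12 differed by 0.82 (SE 0.237), PHC3 by 0.77 (SE 0.234) and ELK4 by 0.58 (SE 0.232) in C-33A. MARCKSL1, at -0.50 with an SE of 0.444, was the 1 gene of the 13 above an unadjusted p of 0.05.

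In C-33A itself 8 genes were called (0.0627% of 12755), 4 in each direction, and B4GAT1 and EIF4EBP2 were called in both lines. The others lower with miR-23b-3p there were FAM234B (-1.51) and STX12, an endosomal syntaxin (-1.03), which stood at -0.78 and -0.77 in CaSki. Called in the other direction in C-33A were BIRC5, the apoptosis inhibitor survivin (1.13), RNF6, a ubiquitin ligase (1.09), TRIB3, a stress-induced pseudokinase (1.12), and GNAI2, an inhibitory G protein subunit (1.02). In CaSki these stood at 0.58, 0.30, -0.06 and 0.68 and did not pass. BIRC5 and GNAI2 hold 1 miR-218-5p match each, whereas RNF6 and TRIB3 hold 0 matches for either microRNA. The 4 genes lower with miR-23b-3p in C-33A hold 1 to 3 miR-23b-3p matches and 0 miR-218-5p matches. TRIB3 was thus the 1 of the 8 with opposite signs in the lines, and in C-33A it stood at 1.32 with miR-23b-3p and 0.20 with miR-218-5p in the authors' deposited tables. A normal test of the difference between lines found 0 genes at an adjusted p under 0.05 and 117 at an unadjusted p under 0.05. Across all 10996 genes the differences in the lines had a Pearson r of 0.069 and a Spearman rho of 0.003. With the length-GC trend removed these were 0.175 and 0.134 across 10848 genes. Both are descriptions over genes that share libraries.

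Site medians in C-33A had other sizes. The miR-23b-3p shift was -0.119 there (-0.146 for 8mers) and the miR-218-5p shift was 0.031 (0.103 for 8mers). With the trend removed in each line, the shifts were -0.052 in CaSki and -0.069 in C-33A for miR-23b-3p, and 0.094 and 0.074 for miR-218-5p. The difference between lines in these medians was not tested.

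Published targets of miR-218-5p had mostly positive differences, with 0 of 29 tested members called, 8 called with the common-spread SE, and 12 at an unadjusted p under 0.05. Over all genes tested, the shares in either direction were 0.123%, 1.55% and 3.73% in these settings. Of the 29, 24 had a positive difference, beside 5917 of all 12995 genes, and the median was 0.41, beside -0.027 over all genes. In C-33A the list median was 0.29, beside 0.067 over all genes tested in both lines. The median log2 fold change of the 29 against the control was 0.19 with miR-23b-3p and 0.0003 with miR-218-5p in the authors' deposited tables, so the list as a whole was not below the control with miR-218-5p. TPD52, a tumor-associated vesicle protein, stood at 0.92 (SE 0.246, adjusted p = 0.099). BIRC5, the apoptosis inhibitor that was called in C-33A, stood at 0.58 (SE 0.205) in CaSki. The heparan sulfate epimerase GLCE stood at 0.62 (SE 0.212) in CaSki and 0.67 in C-33A. CDK6, a G1 kinase (0.59), LASP1, an actin-binding protein (0.50), and ACTN1, an actin cross-linker (0.73), were on the same side. CDK6 and ACTN1 were above 0 with either mimic: the authors' deposited tables give 0.72 and 0.12 for CDK6, and 0.76 and 0.03 for ACTN1, with miR-23b-3p and miR-218-5p. For GLCE the authors' deposited tables give -0.20 and -0.82, and for BIRC5 -0.28 and -0.86.

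Published targets of miR-23b-3p were split. Of 31 tested, 16 had a negative difference and 15 a positive one, with a median of -0.026 in CaSki and -0.169 in C-33A, and 0 were called. Over all genes tested the CaSki median was -0.027 and 0.123% were called. The C-33A median over all genes tested in both lines was 0.067. With the common-spread SE, 5 were lower and 1 was higher with miR-23b-3p, beside 0.508% and 1.05% of all genes tested. Among those of lowest p were CCNG1 (-0.57), APAF1, the apoptosome scaffold (-0.66, SE 0.200), and STX12 (-0.77, SE 0.235). In C-33A, APAF1 stood at -0.86 and STX12 at -1.03, while CCNG1 stood at 0.09. SMAD3 (0.27, SE 0.188) and NOTCH1 (0.35, SE 0.254) had positive differences in CaSki, with 0.64 and 0.60 under miR-23b-3p in the authors' deposited table.

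Signalling genes that did not pass still included some far from 0. NRAS, a RAS GTPase with 2 miR-218-5p matches, stood at 0.68 in CaSki (SE 0.177, adjusted p = 0.084) and 0.94 in C-33A. EGFR, the epidermal growth factor receptor, stood at 0.72 (SE 0.270) in CaSki and -0.11 in C-33A, FGFR2 at 0.49 and the BMP receptor BMPR2 at 0.68 in CaSki. Of 34 tested members of the growth factor receptor and RAS-ERK list 0 were called, with a list median of 0.028. Over all genes tested 0.123% were called and the median was -0.027, which holds for the next lists too. Under the common-spread SE, 3 of the 34 were higher with miR-23b-3p, beside 1.05% of all genes tested. THBS1, the matrix protein thrombospondin, stood at 0.79 (SE 0.215, adjusted p = 0.12), with 0.40 and -0.38 in the authors' deposited tables and 1 miR-218-5p match. The extracellular matrix list had 0 of 26 called and a median of 0.15, or 0.09 with the trend removed. Integrin and focal adhesion genes had 0 of 25 called and medians of 0.17 and 0.05 in these settings.

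Large gene families of short or long transcripts lay off the median of -0.027 without a call. Over all 12995 genes tested 0.123% were called, so 0 calls in a list of this size says little, and 7078 lay below 0. In C-33A the median over the 10996 genes tested in both lines was 0.067, with 7048 above 0. For cytosolic ribosomal protein genes the median was -0.317, with 76 of 77 members below 0 and 0 called, and their median was -0.236 with the trend removed and 0.098 in C-33A. Nuclear genes of oxidative phosphorylation had a median of -0.231 with 72 of 74 below 0 and 0 called. UQCR10 (-0.71, SE 0.241) and NDUFA2 (-0.57, SE 0.201), subunits of complexes III and I that each hold 1 miR-23b-3p match, had the lowest p among them, and the list median in C-33A was 0.083. Proteasome subunits (-0.226, 25 of 30 below 0) and replication-dependent histones (-0.190, 43 of 44 below 0) also had 0 called, and stood at 0.146 and 0.348 in C-33A. These counts include genes near 0 with every mimic, whose differences cannot be interpreted. They are 2 of the ribosomal, 1 of the oxidative phosphorylation and 1 of the proteasome members. On the other side, genes of chromatin and transcription coactivators, whose transcripts have a median length of 8583 nt, had a median of 0.279 with 46 of 49 above 0 and 0 called. That median was 0.137 with the trend removed and 0.015 in C-33A. The part of transcript length in these medians was not tested beyond the removed trend.

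For the 13 mitochondrially encoded protein genes the median was 0.878, all 13 lay above 0, 0 were called and the median SE was 3.26, and in C-33A they had a median of -0.579 with 0 of 13 above 0. Genes of mitosis and cytokinesis had a median of 0.059 in CaSki, with 0 of 30 called, beside 0.123% of all genes. In C-33A their median was 0.316 and 30 of 30 were above 0. Over all genes tested in both lines the C-33A median was 0.067, with 7048 of 10996 above 0. In this list, BIRC5 and ANLN, the cytokinesis scaffold anillin, had the lowest p in CaSki, at 0.58 and 0.41, and stood at 1.13 and 0.78 in C-33A. Genes of the integrated stress response had a median of 0.006 in CaSki with 0 of 23 called and 0.378 in C-33A. ATF4, its central transcription factor, stood at -0.25 (SE 0.236) in CaSki and 0.55 (SE 0.232) in C-33A. HMOX1, heme oxygenase 1, stood at 0.67 (SE 0.301) in CaSki and 1.07 (SE 0.304) in C-33A, and TXNRD1, thioredoxin reductase 1, at -0.54 (SE 0.164) in CaSki.

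**Figure D5:**
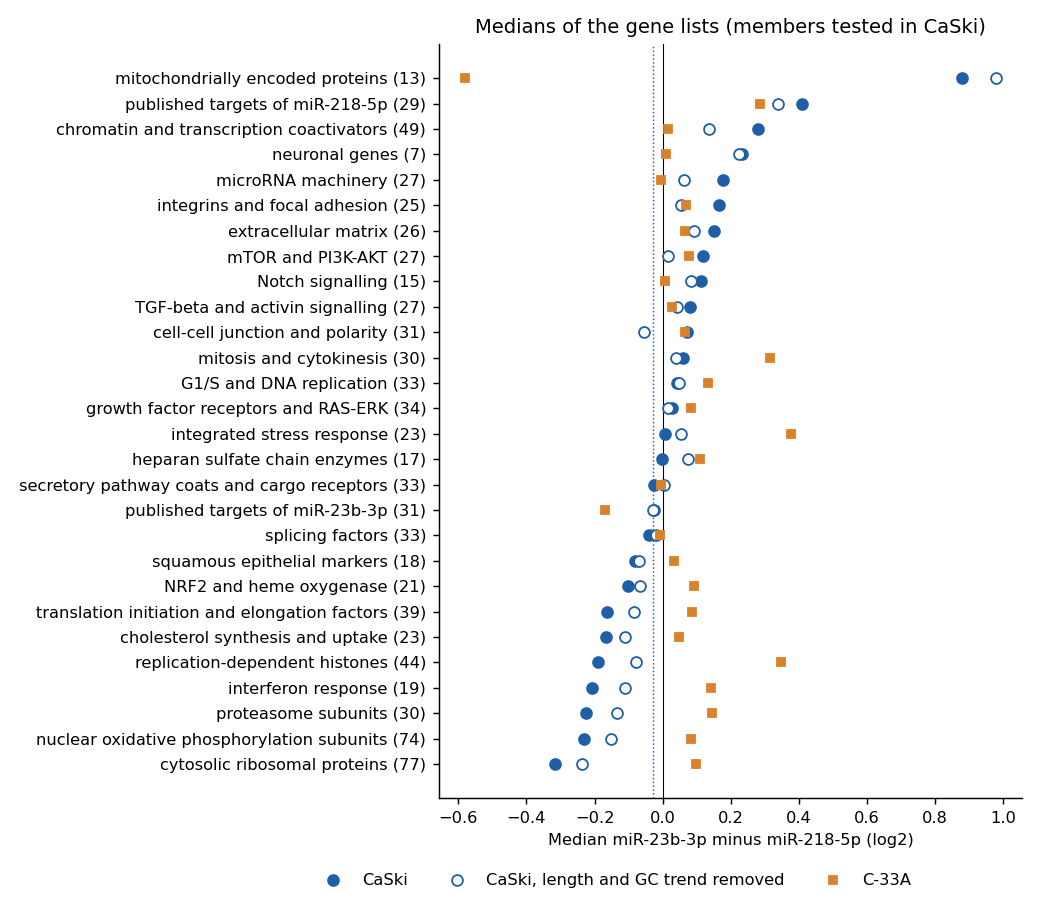
Median difference between the mimics (x axis, log2, miR-23b-3p minus miR-218-5p) of each gene list (y axis, members tested in CaSki in parentheses), in CaSki (filled circles), in CaSki with the length-GC trend removed (open circles) and in C-33A (squares); the dotted line is the CaSki median of all genes, -0.027. Published miR-218-5p targets lie at 0.41 in CaSki and 0.29 in C-33A, while ribosomal protein genes lie at -0.317 and 0.098. The C-33A median of all genes tested in both lines, 0.067, is not drawn.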

How the data were processed

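PolyA RNA sequencing of 23 libraries in 8 groups underlies the tables. The tools edgeR 3.36.0, featureCounts 2.0.3, STAR 2.7.10b and FastQC 0.73 and the build GRCh38 are named, per the submitters' processing notes. Strand setting and annotation are not given in the sources used here. Per the file headers, each of 6 deposited tables compares a mimic with the control of its line and lists 61217 genes by log2 fold change and log2 CPM average, followed by the F score and by the raw p-value with its FDR. Depth per library is unknown, so no interval that needs it is given.

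From these, the difference of the log2 fold changes was computed in Python 3.11.15 (scipy 1.17.1, statsmodels 0.14.6). Each SE was recovered as the fold change divided by the normal quantile of the deposited p-value. The SE of the difference was the root of the summed squares, or, for a common spread, of their mean. Adjusted p-values are Benjamini-Hochberg over all genes tested. The trend was a spline on log transcript length and GC content with 5 degrees of freedom each. The procedure was run on simulated data with the same spread in every group and planted changes larger than the called differences. That run cannot show which SE suits these libraries. Since fewer than 20 genes passed, the named genes were the 12 of lowest p in each direction, plus up to 4 members of lowest p in each list described, and results of some genes are not reported here. Genes named for a C-33A call, and further targets and stress genes, were chosen after their values were seen. The members, the 31 lists (943 symbols, from background knowledge) and the targets were chosen with earlier results of these data known, so no list gives independent support.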

Additional observations from a re-analysis of the deposited data

How the results depend on the processing

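No paired analysis was possible because the deposited tables carry no values per library, and for that reason no library was left out in turn either. The count of genes lower with miR-218-5p, 8 in the report, was 136 with the common-spread SE, 21 with the SE from the F score, 14 with the median difference subtracted, 5 with the length-GC trend removed and 4 at an adjusted p under 0.01. The count lower with miR-23b-3p, also 8, was 66 with the common-spread SE and stayed within 1.5 times in the other settings (6 to 11). Expression minimums of 0 or 2 gave 8 to 10 and 8, and leaving out the genes near 0 with every mimic, chosen after seeing the data, gave 8 and 8. The share of called genes with a site for the microRNA they were lower with, 100%, was 76.8% with the common-spread SE. The miR-23b-3p site shift of 0.039 reversed to -0.052 with the trend removed and to -0.044, -0.044 and -0.017 within the classes of 3′ UTR length, while that of miR-218-5p stayed positive in all settings run. The cause of these changes was not tested. Of 130 named genes, 30 more passed with the common-spread SE and 5 no longer passed with the trend removed. The 30 follow from an SE smaller by the same factor for every gene, not from a new order of the genes.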

Other observations

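Smaller lists also had members away from the median, none called, beside 0.123% of all genes tested. Among microRNA machinery genes, DICER1, which cuts microRNA precursors, stood at 0.40 (SE 0.163) in CaSki and 0.59 in C-33A, and DDX6, an RNA helicase of decay bodies, at 0.43 (SE 0.165) and 0.26. The list median was 0.177 over 27 genes with 0 called, and 0.064 with the trend removed. Cholesterol genes had a median of -0.166 with 17 of 23 below 0 and 0 called, led by MSMO1 (-0.60) and MVD (-0.51, SE 0.197), which stood at -0.66 and 0.19 in C-33A. NOTCH2, a Notch receptor, stood at 0.55 (SE 0.197) in CaSki and 0.18 in C-33A.

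Of the 114 genes with log2 fold changes under -10 for all 3 CaSki mimics, 39 lie on chromosome 6. Chosen after their values were seen, TUBB, a beta tubulin, stood at -17.41, -16.93 and -15.10 and the ribosomal protein gene RPS18 at -16.09, -14.83 and -17.30 with miR-23b-3p, miR-218-5p and miR-124-3p in the authors' deposited tables. The deposited p-values of TUBB in these tables were 0.30, 0.22 and 0.076.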
